A study of Mus musculus with 2 samples.

Results

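Integrins and laminins are the receptor and matrix genes through which cells hold on to a basement membrane. Their messenger RNA was compared between mouse embryonic stem (ES) cells of the line R1 after 6 days of neural differentiation and the undifferentiated cells at day 0. The day 6 sample was embryoid bodies, floating cell aggregates that the labels also call neural precursors. The day 0 sample was R1 ES cells kept undifferentiated with LIF (1000 U/ml) and 15% FBS over a layer of fibroblast feeder cells made unable to divide. Both samples carried the same R1 genotype, and each was measured on 1 one-colour Agilent array, so no test between the days was possible and each difference describes these 2 RNA samples. The sources used here do not give the serum and LIF of the day 6 cultures, nor whether feeders were removed before extraction.

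The genes were chosen by name: every gene probe called Itga or Itgb with a number and at most a letter, or Itgae, Itgal, Itgam, Itgav or Itgax, and every probe called Lama, Lamb or Lamc with a number. Binding proteins such as Itgb1bp1 were left out of this set. The rule found 80 probes for 37 genes, 26 of integrin subunits (59 probes) and 11 of laminin chains (21 probes), among 19466 named genes on the array. A probe was taken as measured where the scanner software marked it well above background on at least 1 array. By that criterion 20 of the 26 integrin genes and 11 of the 11 laminin genes were measured. On neither array were Itga2, Itga10, Itga2b, Itgax, Itgb6 or Itgb2l well above background.

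An integrin is a membrane receptor made of an alpha and a beta subunit, and the pairing sets which ligand it binds. Laminins are secreted cross-shaped proteins of an alpha, a beta and a gamma chain that polymerise into the sheet of the basement membrane. In the early embryo laminin is laid down under the epiblast, and the neuroepithelium later keeps a basement membrane on its outer face to which radial glia attach through integrins. Integrin tails recruit talins, kindlins and kinases that connect the receptor to actin.

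Markers of the labelled cell types were examined first. The 5 pluripotency markers were all at least 2-fold lower on day 6 (median log2 difference -6.17), and 4 of 5 neural progenitor markers and 3 of 4 neuronal markers were at least 2-fold higher. The furthest were Pou5f1, Esrrb and Zfp42 on the lower side, and Fabp7, Hes5 and Pax6 (progenitors) and Dcx, Elavl4 and Tubb3 (neurons) on the higher side. Other cell types also differed between the samples. Of 10 fibroblast markers 5 were at least 2-fold lower on day 6 and 1 was higher, with a summed intensity of 6.68 on day 6 and 34.0 on day 0, in units of each array's 75th percentile. Of 8 measured leukocyte markers 7 were lower and 0 were higher, with sums of 1.94 on day 6 and 19.3 on day 0. The day 0 sum was mostly the marker Lyz2 (60529 scanner units) and the day 6 sum mostly Coro1a (7832). These leukocyte sums therefore compare largely different genes. Among all measured genes, 20.1% were at least 2-fold lower on day 6 and 17.8% higher. In bulk RNA, fewer cells of a type and less RNA per cell cannot be told apart.

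The probes shown here are those of 4 laminin chains, of Itga1, whose probes gave different values, and of Itgb1, whose probes gave like values. Each is the 60-base oligonucleotide in the deposited files, written 5′ to 3′, with the position that the files give in mouse build mm7. Probes for Itga1, Lama1, Lamb1 and Lamb3 lie across an exon junction, since their positions span more than their length. Where a probe lies in its transcript beyond that (coding or UTR) was not looked up here. The Itga1 pair is shown because both are assigned to the same transcript and differed in response. The Lama2 probe was printed 10 times on each array, and the Itgb1 probe shown is the second one for that gene, printed once.
Itga1, chr13:112202968-112207106, minus strand: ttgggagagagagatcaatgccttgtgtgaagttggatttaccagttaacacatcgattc
Itga1, chr13:112138677-112140331, minus strand: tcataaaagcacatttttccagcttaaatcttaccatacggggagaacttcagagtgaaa
Itgb1, chr8:127331051-127331110, plus strand: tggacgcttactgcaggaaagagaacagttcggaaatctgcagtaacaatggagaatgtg
Lama1, chr17:66089045-66090007, plus strand: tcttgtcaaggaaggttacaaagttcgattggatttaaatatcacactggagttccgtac
Lama2, chr10:26736609-26736668, minus strand: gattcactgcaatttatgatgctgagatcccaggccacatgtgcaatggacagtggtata
Lamb1, chr12:29168364-29169711, plus strand: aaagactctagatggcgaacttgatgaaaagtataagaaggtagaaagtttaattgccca
Lamb3, chr1:192893546-192896077, plus strand: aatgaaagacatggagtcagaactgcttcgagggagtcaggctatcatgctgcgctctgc

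Most subunits that differed were lower on day 6. Of 31 measured genes, 16 were at least 2-fold lower (51.6%, against 20.1% of all 14967 measured genes) and 3 were at least 2-fold higher (9.68%, against 17.8% of all genes). Counted by probes, 19 of 37 measured integrin probes were at least 2-fold lower (18.1% of all 28378 measured probes were) and 4 were at least 2-fold higher (17.5% of all probes). At 4-fold, 12 of the genes were lower and 2 were higher, where 8.35% of all genes were lower and 7.35% higher. The median log2 difference was -0.97 over the integrins and -1.63 over the laminins, against -0.09 over all genes. A difference is the day 6 minus the day 0 log2 intensity after each array was scaled to its 75th percentile, which was 4388 units on day 6 and 3758 on day 0. It is given with the scanner software's error as an SD, which holds no variation between cultures. Where a gene passed that background criterion on a single array, "at least" marks a bound. The bound is set against the higher of the gene's own dim value and the lowest intensity well above background (85.2 on day 6 and 102 on day 0). It belongs to the main processing, leaves out the software error, and was smaller for some genes under other background corrections.

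**Figure D1:**
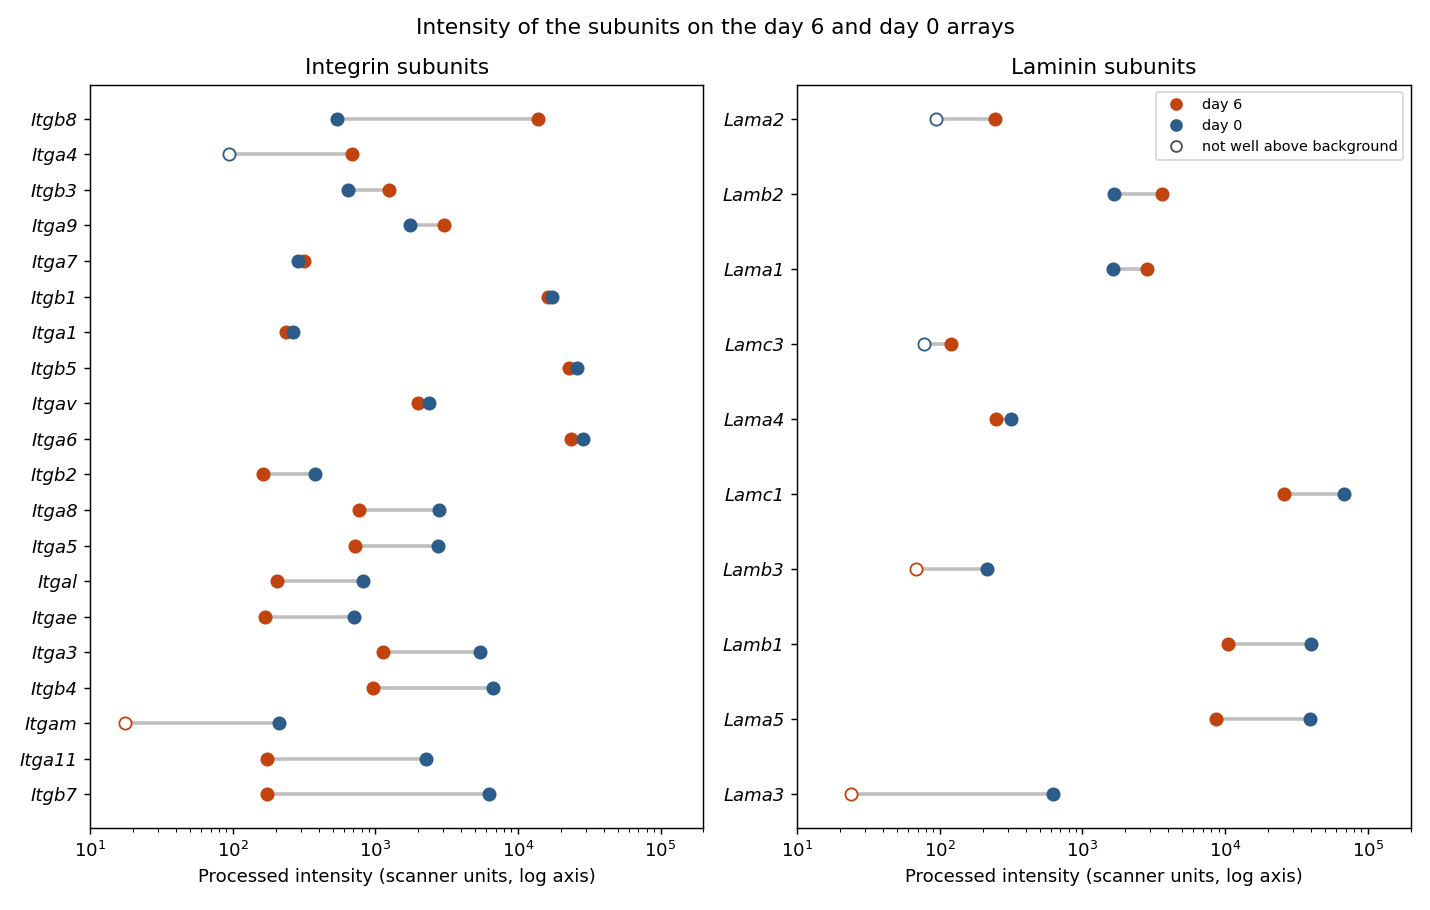
Processed intensity (log axis, scanner units) of the probe that stands for each gene described here on the day 6 array (orange) and the day 0 array (blue). Open circles were not well above background. Each row compares 1 probe between the arrays, and intensities of different rows cannot be set against each other. Itgb8 shows the widest step towards day 6 (13843 against 540), and Itgb7 (173 against 6233) a wide step towards day 0.

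The 3 chains of the main laminin of ES cells and early embryonic basement membranes, Lama5, Lamb1 and Lamc1, were all lower on day 6. Lama5, the alpha chain of most embryonic epithelial basement membranes, had an intensity of 8682 on day 6, against 39305 on day 0, and was 5.29-fold lower (log2 difference -2.40 ± 0.20). Lamb1, the usual beta partner, had 10498 on day 6, against 40087 on day 0, and was 4.46-fold lower (-2.16 ± 0.20). Lamc1, the gamma chain shared by most laminins, had 25918 on day 6, against 68847 on day 0, and was 3.101-fold lower (-1.63 ± 0.20). All 3 stayed well above background on both arrays, and each was measured by 1 probe. The position given for the Lama5 probe covers 15 of its 60 bases, so its placement at this gene is less certain.

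Lama3 and Lamb3, chains of an epithelial laminin known from the epidermis, were also lower. Lama3 was not well above background on day 6 (23.9, against 625 on day 0) and was at least 8.57-fold lower. Its log2 bound was -2.35 with normexp background correction and -2.15 with no background subtraction, smaller but past 2-fold. A second Lama3 probe was well above background on neither array (52.1 on day 6, against 56.8 on day 0). Lamb3 was not well above background on day 6 either (67.5, against 214 on day 0) and was at least 2.93-fold lower; its log2 bound of -1.55 was -0.94 and -0.85 in the same alternatives, both under 2-fold. Of 4 epidermal markers, Krt5, Krt14 and Dsp were at least 2-fold lower on day 6 (20.1% of all genes were). The other, Trp63, had 172 on day 6, against 23.7 on day 0, not well above background, and was at least 1.44-fold higher. The part of such cells in the values of Lama3 and Lamb3 was not tested.

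Lama1, Lamb2 and Lama4 were under 2-fold apart. Lama1, the alpha chain of the earliest embryonic laminin, had 2833 on day 6, against 1629 on day 0, a log2 difference of 0.58 ± 0.21. Its second probe had 1255 on day 6, against 757 on day 0, a log2 difference of 0.51. Lamb2, which replaces Lamb1 in the basement membranes of synapses and kidney glomeruli, had 3589 on day 6, against 1661 on day 0, a log2 difference of 0.89 ± 0.21. Lama4, a chain of vessel walls, had 247 on day 6, against 317 on day 0, and its 2 measured probes, which share 29 bases, gave log2 differences of -0.58 and -0.54. The alpha chains thus went both ways, with Lama5 and Lama3 lower while Lama1 had a positive difference under 2-fold.

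Lama2, the laminin chain of muscle and peripheral nerve, was the laminin gene counted as higher. Its brightest probe had a mean of 243 on day 6 and 94.5 on day 0, where it was not well above background, which put it at least 2.03-fold higher. Of its 10 spots 8 were used on each array after outliers were left out. The spots ran from 225 to 265 with a median of 243 on day 6, and from 85.6 to 102 with a median of 95.01 on day 0. The spots of the arrays did not overlap, and the SD between spots was 0.076 log2 units on day 6 and 0.071 on day 0. This describes 1 labelled RNA on each array and not separate cultures. The log2 bound of 1.02 lay just past 2-fold and was between 0.51 and 0.95 in 6 of 9 alternatives, among them the authors' deposited value table (0.88). A second Lama2 probe had 102 on day 6, against 39.7 on day 0, not well above background, and gave no fold. The remaining Lama2 probe was well above background on neither array. Lamc3, a gamma chain known from brain and retina, was well above background on day 6 only (120, against 76.9 on day 0), and no fold could be given.

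**Figure D2:**
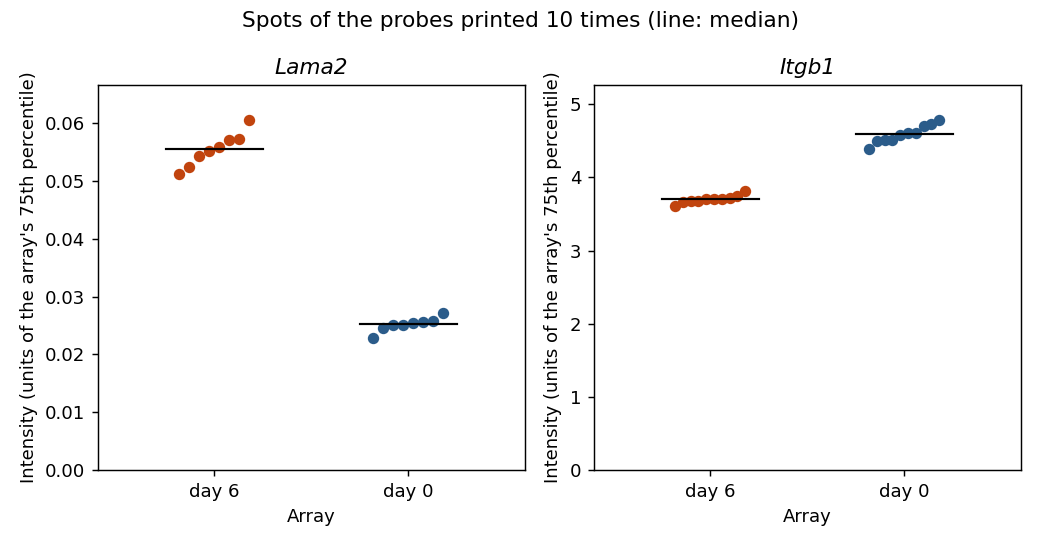
Intensity, in units of each array's 75th percentile, of the single spots of the 2 probes printed 10 times, for the day 6 array (left in each panel) and the day 0 array (right), with the median as a line. The Lama2 spots are separated (0.0512 to 0.0605 on day 6, 0.0228 to 0.0272 on day 0), and so are the Itgb1 spots by a smaller step (3.61 to 3.82 on day 6, 4.38 to 4.78 on day 0). In scanner units, before this scaling, the Itgb1 spots overlapped.

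Of the laminin-binding alpha subunits and their beta partners, Itga3 and Itgb4 were at least 2-fold lower, and Itga6, Itga7 and Itgb1 were under 2-fold apart. Itga6 and Itgb1, which form the laminin receptor of ES cells and neural stem cells, had small differences. Itga6 had 23457 on day 6, against 28360 on day 0, and its 3 probes gave log2 differences of -0.50, -0.57 and -0.70. Itgb1, the beta subunit with the widest set of partners, ran from 15824 to 16739 over 10 spots on day 6, against 16461 to 17974 on day 0. These scanner units overlapped. In units of each array's 75th percentile the spots ran from 3.61 to 3.82 on day 6, against 4.38 to 4.78 on day 0. They did not overlap after that scaling, and they describe 1 labelled RNA on each array, not separate cultures. The log2 difference of Itgb1 after scaling was -0.31 ± 0.20, and that of its second probe was -0.48. By the first probe it was -0.14 after quantile normalization and in the authors' deposited value table. These differences of Itga6 and Itgb1 were all under 2-fold, with the same sign in all their measured probes.

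Itgb4, which pairs with Itga6 in hemidesmosomes, had 965 on day 6, against 6655 on day 0, and was 8.05-fold lower (-3.01 ± 0.21). A second Itgb4 probe gave -3.04 but shares 50 bases with the first, so it is no separate reading. Itga3, the alpha subunit of another epithelial laminin receptor, had 1126 on day 6, against 5372 on day 0, and was 5.57-fold lower (-2.48 ± 0.21). Its other probes were 7.50-fold and 3.37-fold lower, so all 3 were past 2-fold in the same direction. Itga7, a laminin receptor subunit of muscle, had 318 on day 6, against 285 on day 0, a log2 difference of -0.07 ± 0.26, and its second probe, not well above background on day 6, was at least 1.499-fold lower.

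Among partners of Itgav, Itgb8 stood apart. Itgb8 pairs only with Itgav, binds the latent form of TGF-beta, and is known from the neuroepithelium and radial glia of the mouse brain. Its brightest probe lies at 116944827 to 116944886 on chromosome 12 (mm7). It had 13843 on day 6, against 540 on day 0, and was 22.0-fold higher (4.46 ± 0.21). A second probe had 1943 on day 6, against 104 on day 0, which makes it at least 16.1-fold higher. One more probe had 640 on day 6, against 31.3 on day 0, a difference of at least 5.36-fold. All 3 measured Itgb8 probes were thus higher by more than 2-fold, and the brightest stayed between 4.21 and 4.54 log2 units in the alternatives that use it, while the mean of the 3 probes was 3.63. Itgav itself, the vitronectin receptor alpha subunit, had 1979 on day 6, against 2359 on day 0 (-0.48 ± 0.20), and its dimmer probe gave -1.15. Itgb5, another beta partner of Itgav, had 22673 on day 6, against 26094 on day 0 (-0.43 ± 0.20). At the level of RNA, the alpha subunit and Itgb5 were under 2-fold apart by their brightest probes where Itgb8 was 22.0-fold higher.

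Itgb3, a beta partner of Itgav and, in platelets, of Itga2b, could not be given a direction. Its brightest probe had 1253 on day 6, against 639 on day 0 (0.75 ± 0.21). Its other probe, which the files place further along chromosome 11 and assign to a different cDNA, had 305 on day 6, against 1320 on day 0 (-2.34 ± 0.22). Both probes were well above background on both arrays. The mean of the probes was -0.79. The platelet markers Pf4 and Ppbp were at least 2-fold lower on day 6, while Gp9, Gp1bb and Itga2b were not well above background in either sample. The summed intensity of Pf4 and Ppbp was 0.108 on day 6 and 1.09 on day 0 in units of the 75th percentile.

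**Figure D3:**
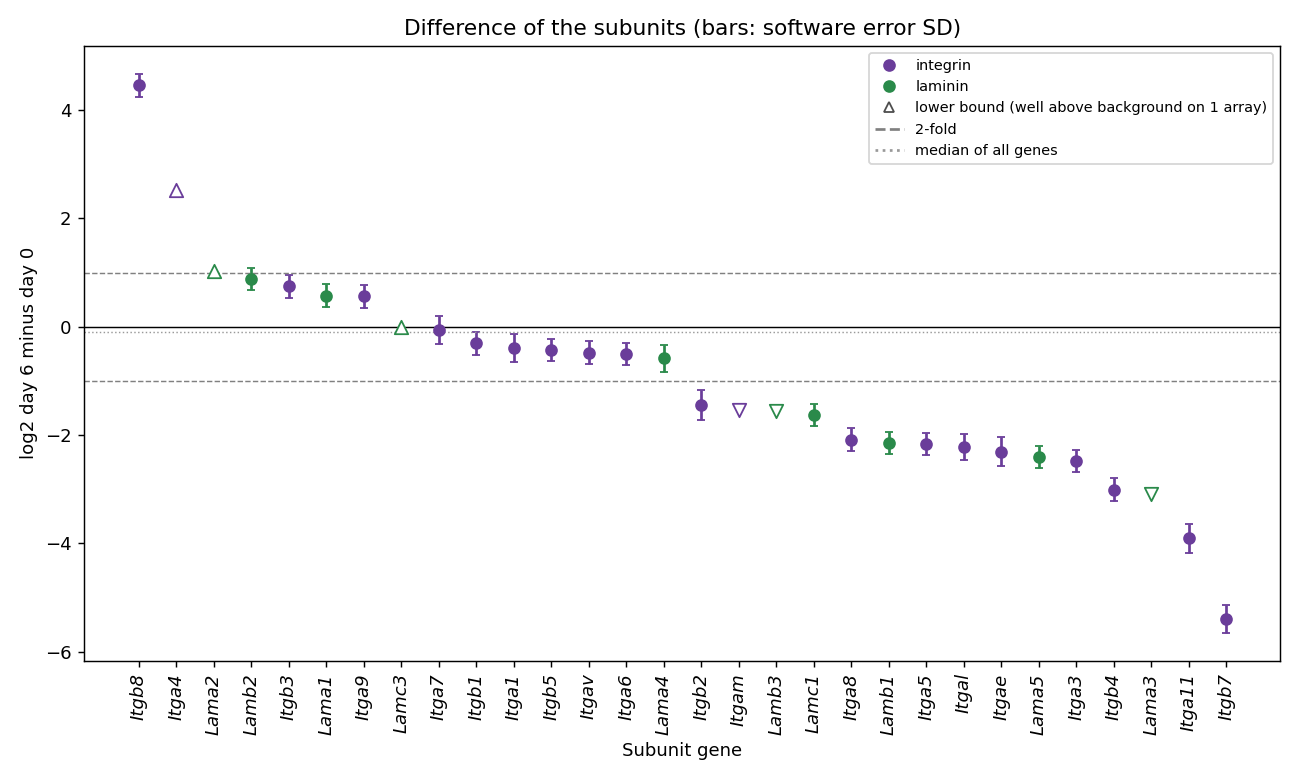
Log2 difference, day 6 minus day 0, of each gene described here by its brightest probe, integrins in purple and laminins in green. Bars are the software error SD, open triangles are lower bounds for genes well above background on 1 array (Lamc3, at 0, has no fold), dashed lines mark 2-fold and the dotted line the median of all genes (-0.09). The genes run from Itgb8 at 4.46 to Itgb7 at -5.40, and 15 of the 30 drawn lie below the lower dashed line.

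Of the 3 measured alpha subunits that bind ligands with an RGD sequence, Itga5 and Itga8 were at least 2-fold lower, and Itgav was not by its brightest probe. Itga5, whose pair with Itgb1 is the main fibronectin receptor, had 716 on day 6, against 2746 on day 0, and was 4.47-fold lower (-2.16 ± 0.21). Itga8, the nephronectin receptor subunit, had 768 on day 6, against 2790 on day 0, and was 4.24-fold lower, and its second probe 4.02-fold lower. Itga9, a subunit that binds tenascin-C and other ligands, had 3020 on day 6, against 1757 on day 0 (0.56 ± 0.20). The alpha subunits Itga5 and Itga8 were therefore past 2-fold, and Itga9 was not. Itgb1, the partner of Itga5 in the fibronectin receptor, was under 2-fold apart (-0.31).

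Itga4, which pairs with Itgb1 or Itgb7 and binds fibronectin and VCAM-1, had probes in opposite directions. Its brightest probe had 689 on day 6, against 93.6 on day 0, where it was not well above background, and so at least 5.77-fold higher on day 6. Another had 37.3 on day 6, not well above background, against 233 on day 0, and was at least 3.20-fold lower. The first is assigned to the RefSeq transcript and the second to another cDNA that maps before it on chromosome 2. On neither array were the other 4 Itga4 probes well above background. Among them, a probe assigned to the same RefSeq transcript as the brightest had 17.1 on day 6, against 20.5 on day 0. Another of that transcript had 17.6 on day 6, against 57.4 on day 0. The day 6 signal of the brightest probe was thus not seen by those probes. The log2 bound of the brightest was 2.53, and 1.70 with no background subtraction. The mean of the 2 measured probes was 0.43, under 2-fold. Of 16 integrin and laminin genes with several measured probes, Itga4 was the 1 gene with probes past 2-fold both ways, and 14 had all their probes on the same side of 0 or at it. Among all genes, 59 of 6528 had probes past 2-fold both ways.

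Collagen-binding subunits differed in how far they could be read. Itga11, a fibroblast and mesenchymal collagen receptor subunit, had 174 on day 6, against 2247 on day 0, and was 15.1-fold lower (-3.91 ± 0.26; -3.19 with no background subtraction). Itga1 had 4 measured probes that were unequal. Its gene value comes from the first sequence shown for it, with 235 on day 6, against 265 on day 0 (-0.40 ± 0.26). The second Itga1 sequence shown had 20.4 on day 6, not well above background, against 522 on day 0, and was at least 7.16-fold lower. Of the remaining Itga1 probes, one was at least 2.96-fold lower and the other at least 1.91-fold lower, and the mean over the 4 probes was -1.43, past 2-fold. Of the fibroblast markers, S100a4, Lox and Thy1 were furthest lower on day 6, while Lum was 3.20-fold higher and Col3a1, Postn and Pdgfrb were under 2-fold apart. The part of feeder RNA in the values of Itga11, Itga1 and Itga5 was not tested.

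**Figure D4:**
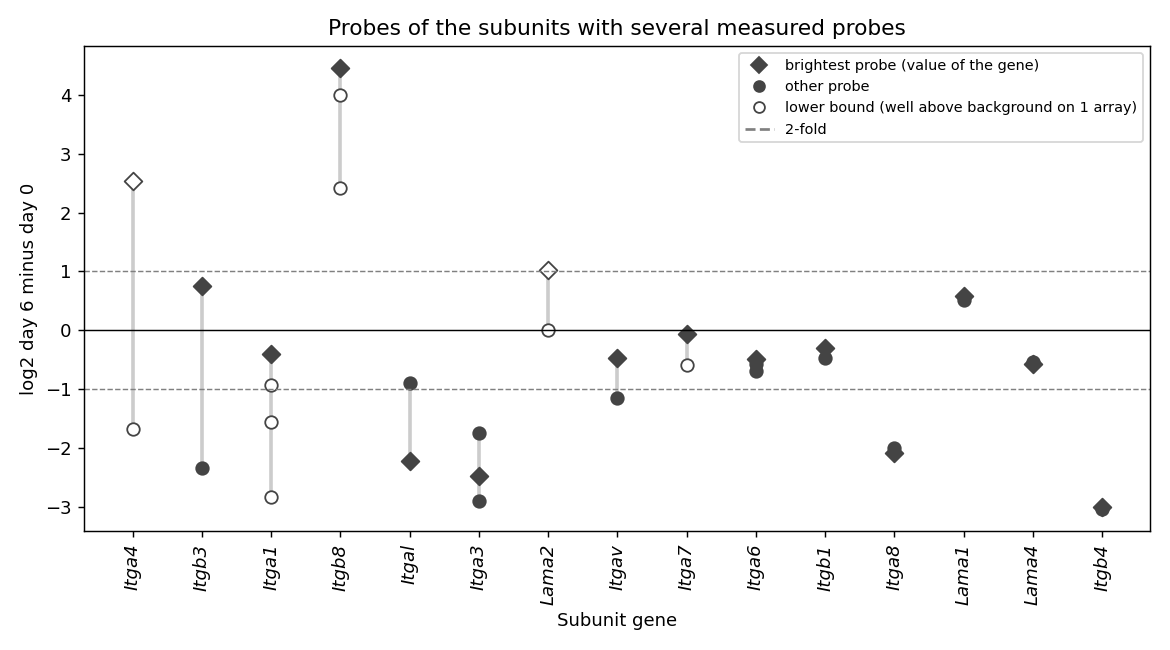
Log2 difference, day 6 minus day 0, of every measured probe of the genes described here that have several, ordered by the range between their probes. Diamonds are the brightest probe, which gives the gene its value, circles are other probes, and open symbols are lower bounds. Itga4 and Itgb3 have probes on both sides of 0, and Itga6, Itga8, Itgb1, Itgb4, Lama1 and Lama4 have probes close together.

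The leukocyte group held Itgae, Itgal, Itgam, Itgb2 and Itgb7, while its members Itgax and Itgb2l were not measured. By gene value, all 5 measured members passed 2-fold on the lower side, as did 20.1% of all genes. The count depends on the grouping, since Itga4, a partner of Itgb7, was placed with Itga9. The brightest Itga4 probe was at least 5.77-fold higher on day 6 and another at least 3.20-fold lower. Itgb7, the beta partner of Itga4 and Itgae (probe at 102202176 to 102202235 on chromosome 15, mm7), had 173 on day 6, against 6233 on day 0, and was 42.1-fold lower (-5.40 ± 0.26; -4.67 with no background subtraction), the furthest of the 31 genes in that direction. Itgae, which with Itgb7 binds E-cadherin, had 167 on day 6, against 710 on day 0, and was 4.95-fold lower (-2.31 ± 0.26). Itgal, the alpha subunit of the lymphocyte receptor for ICAM-1, had 204 on day 6, against 814 on day 0, and was 4.66-fold lower. A second Itgal probe gave -0.90, under 2-fold. Itgam, of macrophages and neutrophils, was not well above background on day 6 (17.4, against 211 on day 0) and was at least 2.89-fold lower. A second Itgam probe was well above background on neither array (19.2 on day 6, against 67.0 on day 0). Itgb2, the shared beta subunit of Itgal and Itgam, had 163 on day 6, against 379 on day 0, and was 2.71-fold lower (-1.44 ± 0.28), with a value of -0.996, just under 2-fold, without background subtraction.

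Markers of the cells that carry those receptors were lower as well. The macrophage lysozyme gene Lyz2 had 40.3 on day 6, not well above background, against 60529 on day 0, and was at least 830-fold lower. Laptm5, a lysosomal protein of blood cells, was at least 27.9-fold lower, and Tyrobp, a myeloid receptor adaptor, at least 11.1-fold lower. Ptprc (CD45), which marks leukocytes, had 19.0 on day 6, not well above background, against 279 on day 0. Coro1a was under 2-fold apart, and Cd48 was dim in both samples. Whether the day 0 signals of Itgb7, Itgae, Itgal, Itgam and Itgb2 came from ES cells, feeders or other cells was not tested.

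Genes that act beside the subunits were taken from lists of basement membrane components, other laminin receptors, integrin ligands, and integrin adaptors and kinases. Of 16 measured basement membrane genes, 5 passed 2-fold on the higher side (31.25%, against 17.8% of all genes). On the lower side 4 did (25%, against 20.1% of all genes), and the median of the 16 was -0.20. The nidogens Nid1 and Nid2, which link laminin to collagen IV, were 4.47-fold and 6.50-fold lower, and the matrix gene Tinagl1 8.65-fold lower, though a second Tinagl1 probe gave a log2 difference of -1.12. Nid2 had 9314 on day 6, against 51832 on day 0. The collagen IV chain gene Col4a5 was 4.57-fold higher, and Fras1 and Frem2, whose products hold embryonic epithelia to the dermis, were 7.197-fold and 3.91-fold higher, with a second Frem2 probe at a log2 difference of 1.07. Both nidogens therefore lay on the side of Lama5, Lamb1 and Lamc1. The other collagen IV genes, named after their values were seen, went both ways. Col4a1 (0.59, and 0.041 by a second probe) and Col4a2 (1.03) had positive differences. Col4a4 (-0.34) and Col4a6 (-0.27) had negative ones under 2-fold, and Col4a3 was not measured.

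Laminin receptors outside the integrin family had a median log2 difference of -0.0030 over 17 measured genes. Of these, 6 were at least 2-fold higher (35.3%, against 17.8% of all genes) and 3 lower (17.6%, against 20.1%). Bcam, a receptor for the Lama5 chain, had 321 on day 6, against 3462 on day 0, and was 12.6-fold lower. Dmd, the dystrophin gene, was 4.66-fold lower, though by 2 further Dmd probes the log2 difference was -1.67 and -0.98, and the syndecan gene Sdc4 4.17-fold lower. Sgce, a sarcoglycan, was 6.31-fold higher, and Sdc2 and Sgcb 2.85-fold and 2.76-fold higher. A second Sdc2 probe gave a log2 difference of 0.12 and a second Sgcb probe 2.36. Dag1, the dystroglycan gene, whose product binds laminin directly, was under 2-fold apart (-0.89 ± 0.20) and was named after its value was seen.

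Ligands of integrins other than laminins had a median of -1.64 over 24 measured genes (-1.31 with bounds in place of measured values). Of these, 13 were at least 2-fold lower (54.2%, against 20.1% of all genes) and 2 higher (8.33%, against 17.8%). Vtn, the gene of vitronectin, a ligand of Itgav receptors, had 44235 on day 6, against 20.9 on day 0, not well above background, so at least 370-fold higher. Edil3, an RGD protein that also binds Itgav receptors, was 12.2-fold higher. Tnc, the gene of tenascin-C, was at least 105-fold lower, and Spp1, the gene of osteopontin, had 3198 on day 6, against 191824 on day 0, and was 70.0-fold lower. Icam1, the ligand of Itgal with Itgb2, was 48.7-fold lower. Fn1, the gene of fibronectin, named after its value was seen, was 4.40-fold lower. Of the TGF-beta genes in the list, also named after their values were seen, Tgfb1 was 9.56-fold lower and Tgfb3 had a log2 difference of -0.38.

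Of 36 measured adaptors and kinases, 14 were at least 2-fold lower (38.9%, against 20.1% of all genes). On the higher side were 3 (8.33%, against 17.8% of all genes), and the median of the 36 was -0.64. The kindlin gene Fermt1 was 10.8-fold lower, the focal adhesion kinase relative Ptk2b 10.2-fold lower and the tensin gene Tns3 7.55-fold lower. Nedd9, a scaffold of the Cas family, was 11.6-fold higher, the Src family kinase Fyn 2.95-fold higher, and Itgb3bp, which is also a centromere protein, 2.33-fold higher, with a second Itgb3bp probe at a log2 difference of 2.13.

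**Figure D5:**
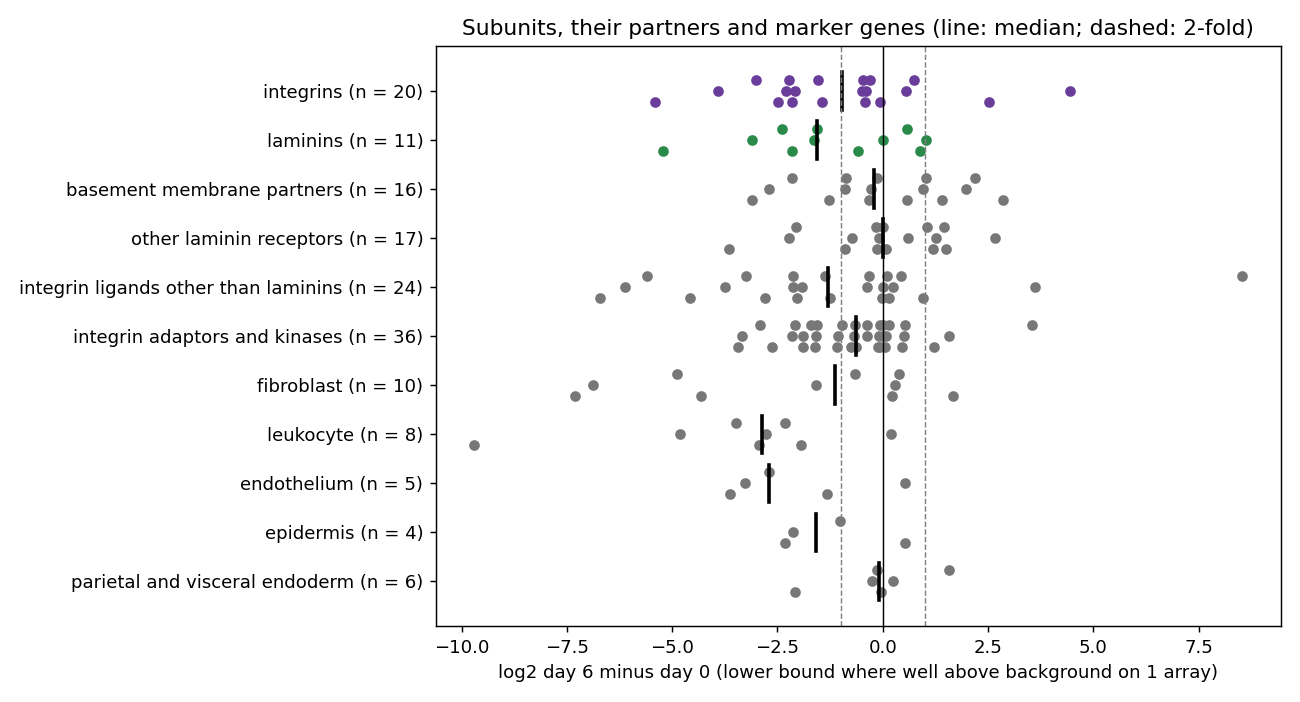
Log2 difference, day 6 minus day 0, of each measured integrin (purple) and laminin (green) gene and of genes in the partner and marker lists (grey), with the median of each as a line and 2-fold as dashed lines; genes well above background on 1 array are at their bound. Integrin ligands range from Vtn, at least 370-fold higher, to Tnc, at least 105-fold lower, and the leukocyte markers lie low except Coro1a.

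Vessel and endoderm markers were examined because both tissues carry laminins and integrins. Of 5 endothelial markers 4 were at least 2-fold lower on day 6 (20.1% of all genes were), with Tek, Pecam1 and Vwf furthest. Cdh5, which defines endothelial junctions, had a log2 difference of 0.54. The summed intensities of the 5 markers were 0.281 on day 6 and 1.16 on day 0. Of 6 measured markers of parietal and visceral endoderm, 1 (Sox17) was at least 2-fold higher (16.7%, against 17.8% of all genes). Sox7 was the 1 at least 2-fold lower (16.7%, against 20.1% of all genes), so these endoderm counts were near the shares of all genes. The sums of the endoderm markers were 1.16 on day 6 and 1.14 on day 0, and Afp and Ttr were dim in both samples. Skeletal muscle factors Myod1 and Myog were dim in both samples, and the muscle actin gene Acta1 was 8.58-fold lower. The part of these cells in the values of Lama1, Lama2 and Lama4 was not tested.

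The RefSeq promoter table (GRCm38.p6) held windows for 24 of the 37 genes, from 250 bases before to 50 after the start. Windows are shown for Itgb8 and Itgb7, the genes furthest apart in the 2 directions, and for Lama5 and Lamb1, which were lower together. Capitals mark the GC box, GGGCGG on either strand, found in 35.7% of 32851 windows of the same length.
Itgb8, chr12:119238227-119238526, minus strand: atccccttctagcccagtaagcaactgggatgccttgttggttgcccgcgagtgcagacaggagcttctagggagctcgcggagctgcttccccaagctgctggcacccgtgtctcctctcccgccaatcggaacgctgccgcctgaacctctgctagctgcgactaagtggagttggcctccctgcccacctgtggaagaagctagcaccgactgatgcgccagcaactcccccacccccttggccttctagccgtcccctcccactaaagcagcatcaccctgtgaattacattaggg
Itgb7, chr15:102231886-102232185, minus strand: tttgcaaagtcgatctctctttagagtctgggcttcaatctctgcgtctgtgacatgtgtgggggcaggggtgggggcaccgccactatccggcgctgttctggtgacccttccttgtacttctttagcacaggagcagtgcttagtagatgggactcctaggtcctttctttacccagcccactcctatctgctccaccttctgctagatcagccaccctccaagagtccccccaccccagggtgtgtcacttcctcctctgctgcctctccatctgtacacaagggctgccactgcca
Lama5, chr2:180225810-180226109, minus strand: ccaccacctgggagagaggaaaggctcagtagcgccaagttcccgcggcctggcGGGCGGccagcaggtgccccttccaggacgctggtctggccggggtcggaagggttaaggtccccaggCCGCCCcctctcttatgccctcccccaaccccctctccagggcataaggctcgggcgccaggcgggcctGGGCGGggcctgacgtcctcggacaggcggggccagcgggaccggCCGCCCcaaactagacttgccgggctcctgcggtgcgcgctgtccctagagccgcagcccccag
Lamb1, chr12:31265043-31265342, plus strand: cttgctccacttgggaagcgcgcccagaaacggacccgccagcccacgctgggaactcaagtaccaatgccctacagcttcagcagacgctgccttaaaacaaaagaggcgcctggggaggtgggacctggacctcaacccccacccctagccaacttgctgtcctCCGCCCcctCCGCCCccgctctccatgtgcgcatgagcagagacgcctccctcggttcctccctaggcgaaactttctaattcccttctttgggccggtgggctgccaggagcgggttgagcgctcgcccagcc
Lama5 held 4 matches and Lamb1 held 2, while Itgb8 and Itgb7 held 0. The GC content of the windows was 72.7% for Lama5, 63.7% for Lamb1, 60.7% for Itgb8 and 56.3% for Itgb7. Of the 9 lower genes with a window, 5 held a GC box in any of their 11 windows. So did 2 of the 3 higher genes, 3 of the 6 genes under 2-fold and 1 of the 6 genes not measured. These counts are of genes, while the 35.7% is a share of windows. A match describes the letters and is no binding site.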

How the data were processed

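Total RNA of 1 day 6 sample and 1 day 0 sample was hybridised, Cy3-labelled per the labels, to arrays of design 014868. Per the file headers, the authors' scanner files came from Feature Extraction 9.5.3.1 and give per spot an intensity after background subtraction and detrending, with a surrogate value where a spot is not above background, and flags. The deposited value table is on a log2 scale with equal distributions on both arrays. No source used here gives its steps, and it served as an alternative (Pearson correlation of differences with the scanner files 0.996 across measured probes, which are not independent replicates). Both arrays lay on 1 slide, so position and day cannot be told apart.

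Controls were dropped, as were outlier spots (216 of day 6, 186 of day 0), saturated spots kept, log2 intensities of a probe's spots averaged, and each array scaled to its 75th percentile. A gene took its brightest measured probe. Genes were named through RefSeq (GRCm38.p6), and 14967 of 19466 had a probe well above background (26882 probes on day 6 and 25227 on day 0, of 41043). With 1 array a group there was no test, and differences were counted at 2-fold and 4-fold. The number of arrays limits the precision. The median software SD was 0.21 log2 units over the members. The members and lists were chosen with earlier results of these data known. All members are counted, and described except 1 gene that is not reported here, and of each other list the 3 furthest up and the 3 furthest down past 2-fold are named, with defining markers. The calling script was checked on simulated data. Python 3.11.15 and, for normexp, limma 3.58.1 were used.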

Additional observations from a re-analysis of the deposited data

How the results depend on the processing

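Of 19 genes past 2-fold, 15 stayed past it in each alternative that gave a value and 0 changed sign; the exceptions were Itga4, Itgb2, Lama2 and Lamb3, and Itga1 came past 2-fold with the mean of its probes. Of genes under 2-fold, Itgb3 turned to -0.79 with the mean of its probes and Itga7 to 0.016 with the percentile taken over probes well above background on both arrays. The count of higher integrins was 2, and 1 with the filter on both arrays, 1 with probes averaged per gene and 4 counting probes. Lower integrins numbered 10, between 9 and 11 in the alternatives that count genes, and 19 counting probes, of which 37 were measured. Lower laminins numbered 6, and 5 under normexp and with no background subtraction. They were 4 with the filter on both arrays and 7 counting probes, of which 15 were measured. The higher laminin was 1, and 0 under normexp, no background subtraction, median scaling, quantile normalization, the authors' deposited value table, the filter on both arrays and the mean of probes. The integrin median of -0.97 was -0.73 with no background subtraction, -0.52 with no filter, -1.50 with the mean of probes and -1.75 counting probes. The laminin median of -1.63 moved to -1.13 under normexp, -1.004 without background subtraction, -1.34 after quantile normalization, -1.36 in the deposited value table and -0.58 counting probes. Median scaling put the median of all genes at -0.21 and the share of higher calls at 41.7%, against 47.0%. The causes were not tested, except that filters and probe counts use other members by construction. Signal over background limits the 6 members measured on 1 array only. Members at their bound was an alternative chosen after seeing the data. No paired analysis was possible because each day had 1 array, and no array could be left out.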
